A study of Mus musculus with 12 samples.

Results

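The 40 genes described here encode ribosome biogenesis factors: subunits and initiation factors of RNA polymerase I, nucleolar proteins and the proteins that cut, modify and fold the precursor of ribosomal RNA (pre-rRNA). They were given as a list of symbols, drawn up with earlier results of these data known, and matched by symbol to the Ensembl gene IDs of the deposited tables. All 40 were found among 48795 listed genes and all 40 were among the 14838 genes with enough counts to be tested. The RNA came from C2C12 myotubes, which form when the myoblasts of this mouse line stop dividing and fuse. Sequencing of 12 libraries, 3 per group, compared vehicle, gRc (ginsenoside Rc, a saponin of ginseng), hydrogen peroxide (H2O2) and gRc followed by H2O2. The question was how gene expression under oxidative stress differs with and without the ginsenoside.

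In the groups without peroxide, myotubes received vehicle or 10 µM gRc for 24 h. In the H2O2 group they received vehicle for 18 h and then 0.25 mM H2O2 for 6 h, and in the gRc + H2O2 group 10 µM gRc preceded the same dose and time of peroxide. The sample descriptions give this pretreatment as 18 h, whereas a treatment tag on the gRc + H2O2 libraries reads 24 h. The growth protocol describes 5 days of differentiation although the cell-type tag reads myoblasts. All 12 differentiated muscle markers examined were expressed, the lowest being 3535 counts of Myh8 in a library. The model is a single cell line. No label states that replicates were grown as separate cultures, so every p-value here reflects library-to-library spread that may be technical.

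Ribosomes are assembled in the nucleolus. RNA polymerase I transcribes a long precursor, small nucleolar ribonucleoproteins (snoRNPs) guide its methylation and pseudouridylation, and a succession of GTPases, helicases and scaffold proteins turns it into the small and the large ribosomal subunit. The genes of these factors are often co-regulated with growth, and in muscle the output of the pathway is known to differ between growing and wasting fibres.

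Library totals ran from 19274762 to 31409066 counts. Along the leading principal component, which carried 43.1% of the variance over all genes, vehicle replicate 1 stood at -68.6 and vehicle replicate 3 and gRc replicate 3 at 82.3 and 84.2, outside the range of the other libraries. In a contrast of the tenth of genes poorest in GC with the tenth richest in it, log2 values ran from -0.83 in vehicle replicate 1 to 0.42 in gRc replicate 3. Vehicle replicate 3 had 0.30. The gRc + H2O2 libraries had 0.34, 0.41 and -0.12 and the H2O2 libraries -0.21, 0.26 and -0.28, in order of replicate. Vehicle replicates 1 and 3 and gRc replicate 3 were kept, and results that depend on them are given with and without them. Leaving them out does not remove the GC contrast of the libraries with peroxide. In such bulk RNA, fewer cells of a type and less RNA per cell cannot be told apart.

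Peroxide was accompanied by higher RNA levels of most of the 40 factors. In H2O2 against vehicle, 24 of 40 rose, none fell and 16 were not called at an adjusted p of 0.05 (edgeR's quasi-likelihood test, Benjamini-Hochberg over all genes tested), where 7.81% of all genes were called higher and 7.84% lower. The rises ran from 1.42-fold for Wdr12 to 2.93-fold for Gnl3, and 19 of the 24 were at least 2-fold. The median log2 fold change over the 40 was 1.03, beside -0.06 over all genes tested, and the value was above 0 for 39 of 40 factors (45.8% of all genes). For 32 factors the lowest H2O2 library lay above the highest vehicle library, a separation found in this direction for 15.9% of all genes. At an unadjusted p under 0.05 there were 33 factors, against 29.8% of all genes.

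Among myotubes that had received gRc, all of the factors called were likewise higher with peroxide. This second comparison contrasts other libraries than the first but shares its estimate of spread, which came from all 12, and gRc libraries deviated together with the vehicle libraries of the same number, so it is no independent repeat. In gRc + H2O2 against gRc, 23 of 40 rose, none fell and 17 were not called, with 7.57% of all genes called higher and 8.15% lower. The median log2 fold change was 0.84, beside -0.04 over all genes, and 39 of 40 values were above 0 (47.0% of all genes). The groups did not overlap for 33 factors, all higher with peroxide (19.2% of all genes). Of the 24 factors called in the first comparison 22 (all but Npm1 and Nop16) were also called in the second, which had 23 calls. Nhp2 was called in the second only. Of all genes tested, 6.00% were called higher in both.

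**Figure D1:**
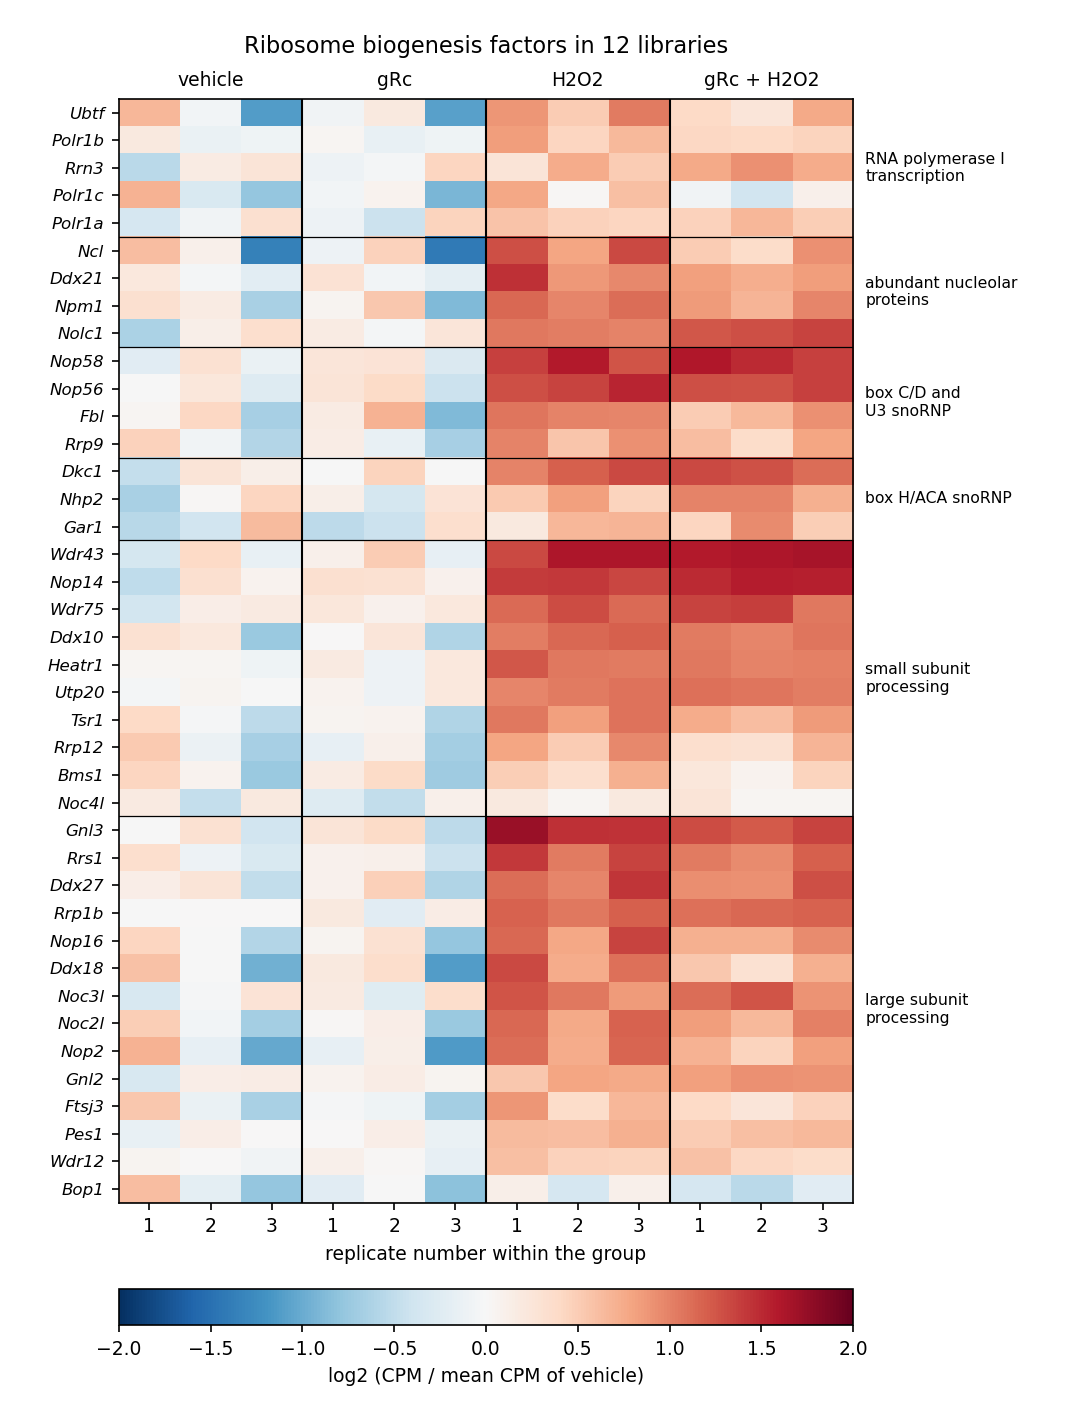
Level of each of the 40 factors (one row each, grouped by role and ordered by the H2O2 response) in the 12 libraries, as the log2 ratio of CPM to the mean CPM of the vehicle group. Red is higher and blue lower: the 6 columns with peroxide are red for nearly all rows, while vehicle replicate 3 and gRc replicate 3 hold the darkest blue cells and Bop1 stays pale or blue with peroxide.

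Taking the 6 libraries with peroxide against the 6 without, every library with peroxide lay above every one without for 25 factors, a pattern found for 10.4% of all genes tested, and the reverse order held for 0 of the 40 (10.1% of all genes). These were the 25 factors called in at least 1 of the peroxide comparisons. The 15 called in neither were Polr1a, Polr1c, Rrn3, Ubtf, Ncl, Fbl, Rrp9, Gar1, Noc4l, Bms1, Rrp12, Nop2, Bop1, Ddx18 and Ftsj3. Summed over the 40 factors, RNA levels were 3230 to 6201 CPM (counts scaled to a common library size after normalization) in the vehicle libraries and 3107 to 5852 in the gRc libraries. The sums were 8516 to 10297 CPM with H2O2 and 7453 to 8912 with gRc + H2O2, so that no library without peroxide reached the level of any library with it. Nucleolin (Ncl) alone contributed 464 to 3103 CPM to these sums.

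Since 25 of the 40 factors were called higher in at least 1 peroxide comparison, the promoters of the 40 were read from the RefSeq table of promoters (250 bases before each gene start and 50 after, mouse build GRCm38.p6). Of the 40 factors 34 had an entry, with 43 start sites. The E-box CACGTG, the palindromic site to which Myc and its partners are known to bind, occurred in 6 of the 43 windows (14%), those of Rrn3, Wdr43, Utp20, Tsr1, Nop2 and Pes1, beside 7.15% of all 32851 promoters and 9.8% of those of tested genes. The GC box GGGCGG, the letters bound by Sp1-type factors, occurred on either strand in 32 of 43 (74.4%), beside 35.7% of all promoters and 60.6% of those of tested genes. The windows were richer in GC than all 32851 promoters, with a median of 59.7% beside 52.7%. No GC value was taken for the promoters of tested genes alone. A match describes the letters and is no evidence of binding. The E-box windows of 3 factors that rose in both peroxide comparisons are shown with the motif in capitals. Those of Utp20 (chr10:88826765-88826789, minus strand) and Wdr43 (chr17:71616220-71616249, plus strand) have it 38 and 18 bases into the transcript, and that of Pes1 (chr11:3963965-3963994, plus strand) at base 3:
Utp20: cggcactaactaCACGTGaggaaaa
Wdr43: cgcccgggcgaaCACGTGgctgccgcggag
Pes1: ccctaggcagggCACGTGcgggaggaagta
The 3 windows that follow hold no E-box and were chosen after the motif counts were seen. They show the GC box (GGGCGG or its reverse complement CCGCCC, in capitals) upstream of the paired genes Nop58 (chr1:59684856-59684941, plus strand) and Nop56 (chr2:130274268-130274353, plus strand), starting at -110 and -104 from the gene start, and upstream of Gnl3 (chr14:31019132-31019381, minus strand), the factor with the largest fold change, whose 250 bases hold 10 matches when overlapping ones are counted:
Nop58: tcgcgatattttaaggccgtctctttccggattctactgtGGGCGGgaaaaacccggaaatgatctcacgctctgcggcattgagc
Nop56: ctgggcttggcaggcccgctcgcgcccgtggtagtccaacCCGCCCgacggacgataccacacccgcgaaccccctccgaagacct
Gnl3: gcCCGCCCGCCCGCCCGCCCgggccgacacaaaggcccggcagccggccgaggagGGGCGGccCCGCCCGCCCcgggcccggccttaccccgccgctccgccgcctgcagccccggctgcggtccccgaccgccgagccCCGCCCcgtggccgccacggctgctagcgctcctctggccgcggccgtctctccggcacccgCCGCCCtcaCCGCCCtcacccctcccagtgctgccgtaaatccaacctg
The E-box stood in 4 of 25 windows (16.0%) of those called in H2O2 against vehicle and in 2 of 18 (11.1%) of those not called. The GC box was in 19 of 25 (76.0%) and 13 of 18 (72.2%). These are shares of windows and not of genes. Ubtf alone gave 6 of the 18 windows of factors not called, and Wdr12 gave 3 of the 25 of those called. Shares by gene were not taken.

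Factors of small subunit processing work in the processome, the large particle in which U3 snoRNP and its partners begin to fold and cut the pre-rRNA. Of 10 factors 7 rose in each peroxide comparison, with a median log2 fold change of 1.07 in H2O2 against vehicle. Utp20 (ENSMUSG00000004356, chr10:88746607-88826804), a processome scaffold made of helical repeats, stood at 55.9, 59.4 and 57.1 CPM in vehicle replicates 1 to 3 and at 113, 118 and 121 CPM with H2O2. The 3 vehicle libraries were nearly identical and all 3 H2O2 libraries lay at about 2 times their level, for a log2 difference of 1.03 (SE 0.11, adjusted p = 0.000289). Heatr1 (ENSMUSG00000050244, chr13:12395027-12440289), which links early processing to polymerase I transcription, stood at 59.5, 59.5 and 54.2 CPM with vehicle and at 137, 119.5 and 119 CPM with H2O2. The groups were apart by more than the spread within either, with a log2 difference of 1.11 (SE 0.12, adjusted p = 0.000318).

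Wdr43 and Wdr75 belong with Heatr1 to the subcomplex that joins the pre-rRNA earliest. Wdr43 (ENSMUSG00000041057) had the steepest rise of the class, from 47.9, 80.2 and 55.4 CPM with vehicle to 152, 189 and 187 CPM with H2O2. Its lowest library with peroxide was far above its highest without, and the log2 fold change was 1.52 (SE 0.22, adjusted p = 0.00139). Wdr75 rose from 30.1, 42.5 and 44.1 CPM to 85.4, 96.1 and 85.7 CPM, with no overlap and a log2 difference of 1.19 (SE 0.16, adjusted p = 0.000943). Nop14, which assembles with Noc4l in yeast, went from 37.9, 68.0 and 56.7 CPM to 143, 144 and 137 CPM, with vehicle replicate 1 the lowest and the H2O2 libraries close together. Its log2 fold change was 1.39 (SE 0.19, adjusted p = 0.000922). The helicase Ddx10 and the late-acting GTPase-like factor Tsr1 also rose, with log2 fold changes of 1.12 (SE 0.27, adjusted p = 0.0164) and 0.99 (SE 0.24, adjusted p = 0.0177). Not called were the GTPase Bms1 (0.52, SE 0.31, adjusted p = 0.295), Rrp12, which helps pre-ribosomes leave the nucleus in yeast (0.77, SE 0.29, adjusted p = 0.103), and Noc4l (0.15, SE 0.20, adjusted p = 0.678). The partners Nop14 and Noc4l therefore had log2 values of 1.39 and 0.15 in the same libraries, a difference between genes for which no test was run.

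Factors of the large subunit formed the largest class. Of 14 factors 10 rose in H2O2 against vehicle and 9 in gRc + H2O2 against gRc, with a median log2 fold change of 1.05 in the former. Gnl3 (nucleostemin, ENSMUSG00000042354, chr14:31012433-31019152), a nucleolar GTPase also known from stem cells, rose from 83.5, 105 and 64.8 CPM with vehicle to 279.9, 232 and 229 CPM with H2O2. Every H2O2 library was more than 2 times the level of every vehicle library, and the log2 fold change of 1.55 (SE 0.24, adjusted p = 0.00198) was the largest of the 40. Rrp1b (ENSMUSG00000058392, chr17:32036100-32062865), the counterpart of a yeast factor of large subunit processing, stood at 28.8, 29.1 and 29.2 CPM with vehicle and at 65.7, 60.4 and 66.3 CPM with H2O2. Its vehicle libraries differed least of all 40 factors (SD 0.754% of the mean) and its log2 fold change was 1.14 (SE 0.13, adjusted p = 0.000325).

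Rrs1, which helps to bring the ribonucleoprotein of the smallest rRNA into the large subunit, rose from 60.3, 44.6 and 38.88 CPM to 127, 99.1 and 122 CPM, a log2 difference of 1.28 (SE 0.20, adjusted p = 0.00226). Noc3l, which in yeast escorts the precursor of the large subunit, was the least abundant factor by length-scaled level, with 7.71 ± 1.71 TPM in vehicle (SD, n = 3), the unit in which RSEM scales counts by transcript length. Its values were 16.1, 19.9 and 24.4 CPM with vehicle and 48.2, 41.9 and 36.2 CPM with H2O2, again without overlap, for a log2 difference of 1.06 (SE 0.20, adjusted p = 0.00597). The related Noc2l (1.04, SE 0.30, adjusted p = 0.0369), the GTPase Gnl2 (0.70, SE 0.14, adjusted p = 0.00777), the helicase Ddx27 (1.18, SE 0.28, adjusted p = 0.0160) and Nop16 (1.11, SE 0.30, adjusted p = 0.0291) rose as well. Nop2, an rRNA methyltransferase (1.02, SE 0.40, adjusted p = 0.112), the helicase Ddx18 (1.07, SE 0.41, adjusted p = 0.104) and the methyltransferase Ftsj3 (0.65, SE 0.28, adjusted p = 0.144) were not called, although their log2 values were above 0.

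Pes1, Bop1 and Wdr12 form the PeBoW complex, which is needed for maturation of large subunit rRNA. Pes1 rose from 112, 135 and 124 CPM to 192, 189.5 and 202 CPM, without overlap, and its log2 fold change was 0.65 (SE 0.12, adjusted p = 0.00578). Wdr12 rose by 0.51 (SE 0.12, adjusted p = 0.0176) on the log2 scale. Bop1, singled out after its values were seen, had 405, 231 and 155 CPM with vehicle and 285, 210.0 and 283 CPM with H2O2, so that the groups overlapped over nearly their whole range. Its log2 fold change of -0.02 (SE 0.32, adjusted p = 0.972) had a 95% interval from -0.72 to 0.68, and it was the only factor of the 40 with a value below 0, although alternatives gave -0.31 to 0.43. No test compared Bop1 with its partners.

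**Figure D2:**
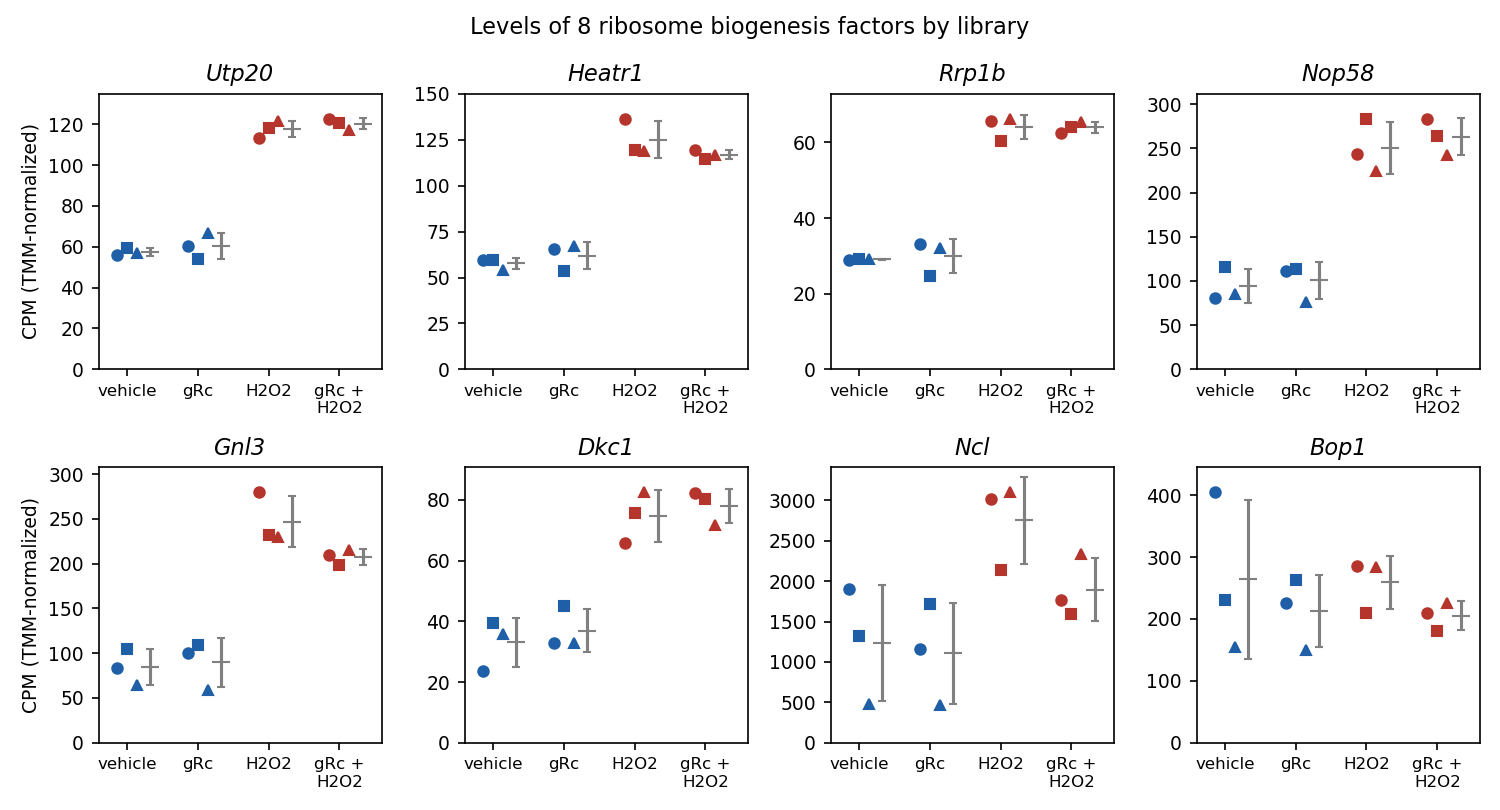
CPM (vertical axis, from 0) of 8 factors in the 4 groups, where the marker shape gives the replicate (circle 1, square 2, triangle 3) and the colour is blue without and red with peroxide, and the mean ± SD (n = 3) in grey. Utp20, Heatr1, Rrp1b, Nop58, Gnl3 and Dkc1 show a clear step between blue and red, Ncl has wide groups that nearly touch or overlap, and Bop1 shows no step. Ncl and Bop1 were chosen after their values were seen.

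Box C/D snoRNPs direct ribose methylation of rRNA, and those with U3 RNA direct its cleavage. Nop56 and Nop58, the paired scaffold proteins of these particles, rose side by side. Nop58 stood at 80.3, 116 and 85.3 CPM with vehicle and at 243, 283 and 225 CPM with H2O2, a log2 difference of 1.42 (SE 0.20, adjusted p = 0.00115). For Nop56 the values were 118, 139 and 99.1 CPM and 291, 303 and 342 CPM, a log2 difference of 1.39 (SE 0.21, adjusted p = 0.00168). In neither gene did the groups overlap. Fibrillarin (Fbl), the methylating enzyme of the same particle, had 73.4, 95.7 and 45.2 CPM with vehicle and 150.2, 143 and 140.1 CPM with H2O2. Its groups did not overlap either, but it was not called, with a log2 difference of 1.02 (SE 0.35, adjusted p = 0.0763). Rrp9, a protein specific to U3 particles, was likewise not called (0.84, SE 0.27, adjusted p = 0.0633).

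Box H/ACA snoRNPs convert uridine of rRNA to pseudouridine. Their catalytic subunit dyskerin (Dkc1), which also stabilises telomerase RNA, rose from 23.8, 39.4 and 36.0 CPM to 65.8, 75.7 and 82.6 CPM. Vehicle replicate 1 was the lowest, the groups were apart, and the log2 fold change was 1.18 (SE 0.20, adjusted p = 0.00345). The small subunits Nhp2 (0.60, SE 0.25, adjusted p = 0.139) and Gar1 (0.52, SE 0.33, adjusted p = 0.331) were not called with H2O2 alone. In gRc + H2O2 against gRc, Nhp2 rose, with a log2 difference of 0.86 (SE 0.25, adjusted p = 0.0412), and Gar1 had 0.79 (SE 0.33, adjusted p = 0.148). The responses to peroxide with and without gRc differed by 0.26 (SE 0.36) for Nhp2 and 0.27 (SE 0.47) for Gar1, and neither difference was called.

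Among the abundant nucleolar proteins, 3 of 4 rose in H2O2 against vehicle. Npm1 (nucleophosmin), a chaperone of nucleolar proteins and histones, had the highest length-scaled level of the 40, 897 ± 364 TPM in vehicle (SD, n = 3). It stood at 655, 584 and 332 CPM with vehicle and at 1165, 1033 and 1142 CPM with H2O2, without overlap and with vehicle replicate 3 the lowest. Its log2 fold change was 1.09 (SE 0.33, adjusted p = 0.0485), and the call was at the threshold: it was lost in most alternatives, for instance with an adjusted p of 0.131 without vehicle replicate 3 and 0.168 after correction for GC content. Ddx21, a helicase active in both polymerase I transcription and snoRNA release, rose from 216, 182 and 162 CPM to 516, 339 and 362 CPM, a log2 difference of 1.12 (SE 0.20, adjusted p = 0.00389). Nolc1, a chaperone of snoRNPs, rose by 1.03 (SE 0.21, adjusted p = 0.00752) on the log2 scale. Nucleolin (Ncl), which binds pre-rRNA and was singled out after its values were seen, had 1906, 1323 and 483 CPM with vehicle and 3016, 2135 and 3103 CPM with H2O2. Its vehicle libraries were the most spread of all 40 factors (SD 57.8% of the mean), and its log2 fold change of 1.15 (SE 0.51, adjusted p = 0.154) was not called.

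In transcription by RNA polymerase I 1 of 5 factors was called in each peroxide comparison. Polr1b, the second largest subunit of the enzyme, was that factor in both, with log2 fold changes of 0.65 (SE 0.14, adjusted p = 0.0112) in H2O2 against vehicle and 0.48 (SE 0.14, adjusted p = 0.0405) in gRc + H2O2 against gRc. The largest subunit Polr1a (0.49, SE 0.22, adjusted p = 0.168), Polr1c, which is shared with RNA polymerase III (0.50, SE 0.37, adjusted p = 0.406), the initiation factor Rrn3 (0.52, SE 0.22, adjusted p = 0.149) and the rDNA-binding factor Ubtf (0.83, SE 0.41, adjusted p = 0.207) were not called in H2O2 against vehicle. The median log2 fold change of the class was 0.52. Ubtf had vehicle libraries at 286, 174 and 83.6 CPM, a wide range that overlapped its 336, 258 and 370.4 CPM with H2O2.

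**Figure D3:**
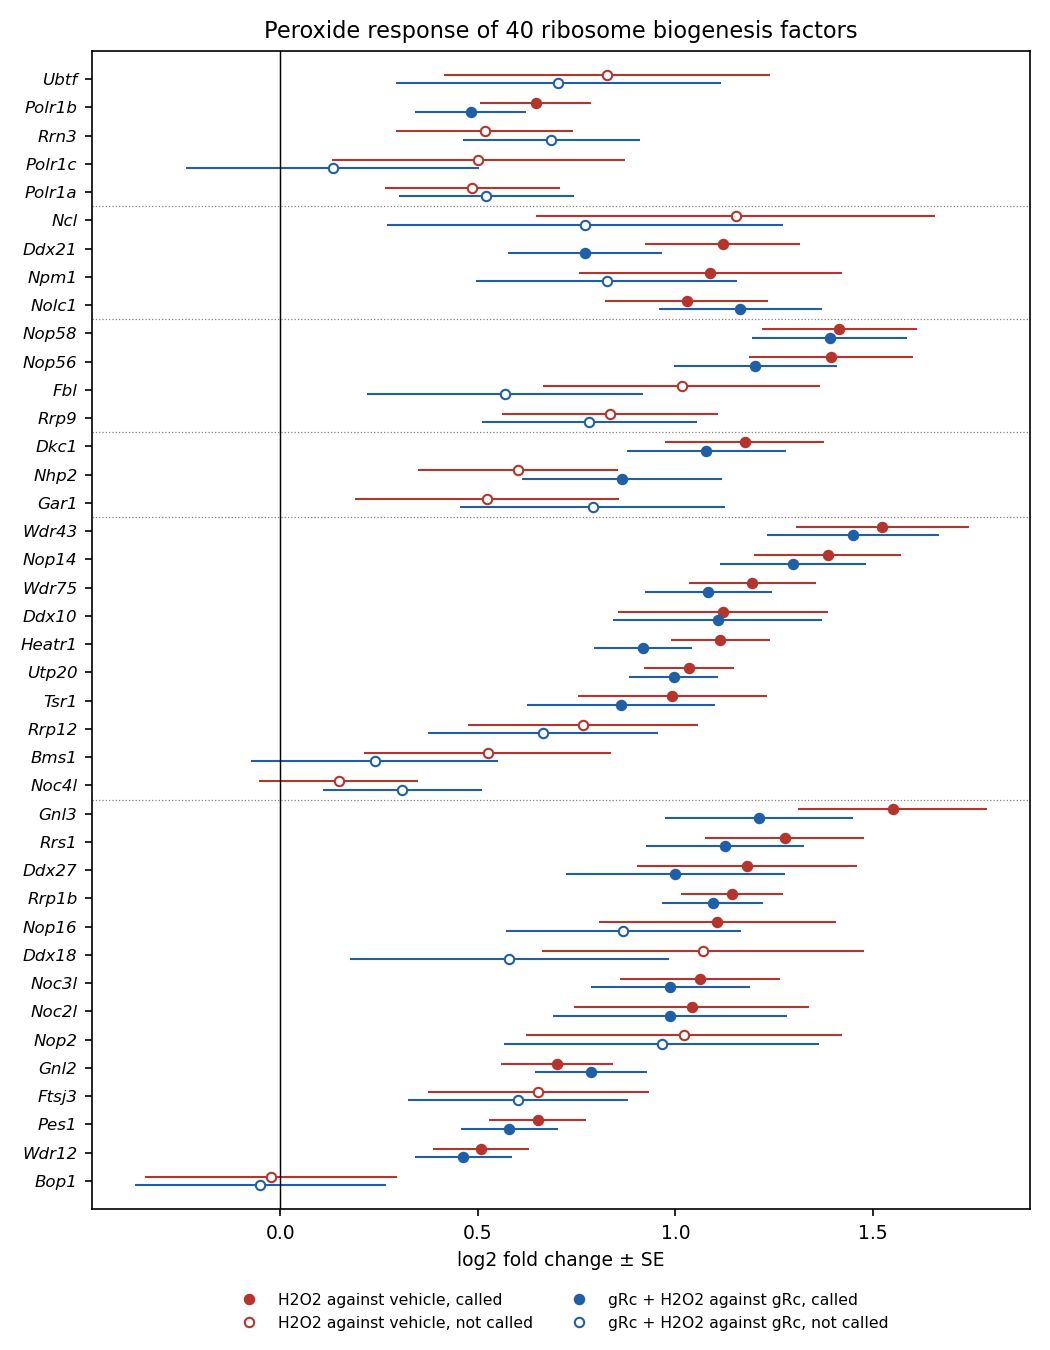
Log2 fold change ± SE (horizontal axis) of each of the 40 factors in H2O2 against vehicle (red) and gRc + H2O2 against gRc (blue), filled where called and open where not, with dotted lines between the classes. Most points lie between 0.5 and 1.5 in both comparisons, Bop1 lies at 0, and the open points tend to carry the longer error bars, on which a call depends.

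The second peroxide comparison is described by its 8 smallest p-values, in order Utp20, Rrp1b, Heatr1, Nop58, Nop14, Wdr75, Wdr43 and Nop56. Utp20 was at 60.3, 53.8 and 66.8 CPM with gRc and 123, 121 and 117 CPM with gRc + H2O2, a log2 difference of 1.00 (SE 0.11, adjusted p = 0.000359). Rrp1b was at 33.1, 24.7 and 32.0 CPM and 62.4, 64.1 and 65.4 CPM, with 1.09 (SE 0.13, adjusted p = 0.000408). These and the other 6 had no overlap between the groups. For Heatr1, whose peroxide libraries lay close together, the levels were 65.3, 53.6 and 66.9 CPM and 119.6, 115 and 117 CPM (0.92, SE 0.12, adjusted p = 0.000969). For Nop58 they were 111, 114 and 76.7 CPM and 284, 264 and 243 CPM (1.39, SE 0.20, adjusted p = 0.00118). Nop58 was thus well above 2 times its gRc level in every peroxide library. Nop14 had 67.4, 67.1 and 57.5 CPM with gRc and 152, 162 and 159 CPM with gRc + H2O2 (1.298, SE 0.18, adjusted p = 0.00125). Wdr75 had 45.7, 41.5 and 45.1 CPM and 98.8, 101 and 80.5 CPM (1.08, SE 0.16, adjusted p = 0.00153). These factors of the small subunit again rose by more than 2-fold. Wdr43 went from 65.6, 87.0 and 54.3 CPM to 184, 189 and 192 CPM (1.45, SE 0.22, adjusted p = 0.00168), and Nop56 from 142, 154 and 88.0 CPM to 292, 287 and 305 CPM (1.20, SE 0.21, adjusted p = 0.00338). For Nop58 and Nop56 gRc replicate 3 was the lowest library. The count of 23 calls fell to 15, 15 and 14 when gRc + H2O2 replicates 1, 2 and 3 were left out in turn. The share of all genes called in those fits is not given.

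A call depends on both size and precision, so the medians of SE and fold change that follow restate that rule and are no separate result. In H2O2 against vehicle the 24 factors called had a median SE of 0.201 and a median log2 fold change of 1.12, and the 16 not called had medians of 0.315 and 0.63. In the second comparison the medians were 0.201 and 1.00 for those called and 0.318 and 0.66 for those not called. The SD within a group, as a share of the mean, had a median over the 40 factors of 27.8% in vehicle and 24.2% in gRc but 12.4% in H2O2 and 8.67% in gRc + H2O2. This order was not particular to the factors. Over all genes, the root mean square log2 difference between libraries of a group was 0.786 to 1.34 in vehicle and 0.509 to 0.972 in gRc. It was 0.486 to 0.574 in H2O2 and 0.376 to 0.517 in gRc + H2O2. Vehicle replicate 3 was the lowest of its group for 23 factors and gRc replicate 3 for 28. Between vehicle replicates 1 and 3, Ncl and Gar1 moved in opposite directions, from 1906 to 483 CPM and from 9.21 to 21.0 CPM. With vehicle replicates 1 and 3 and gRc replicate 3 left out together, 31 factors rose in each peroxide comparison, beside 7.15% of all genes in H2O2 against vehicle and 16.8% in gRc + H2O2 against gRc, and the single vehicle library left was then assumed to vary like the other groups. With only vehicle and H2O2 libraries in the fit 14 rose in place of 24, beside 2.69% of all genes. The part of these libraries in the result was not tested beyond this.

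**Figure D4:**
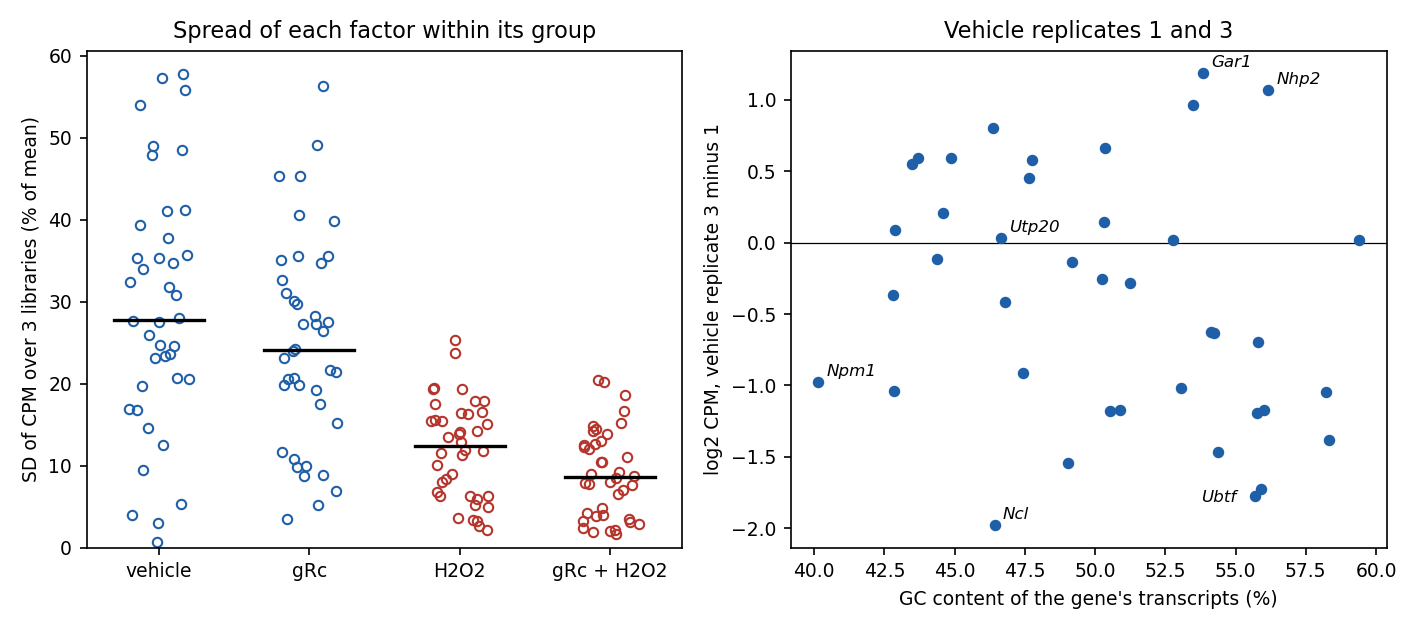
Left, SD of CPM over the 3 libraries of a group as a percentage of the mean, 1 circle per factor and a black line at the median, which is 27.8% in vehicle and 8.67% in gRc + H2O2. Right, log2 CPM of vehicle replicate 3 minus replicate 1 against the GC content of the gene's transcripts, where Ncl and Ubtf are lowest and Gar1 and Nhp2 highest and 24 of 40 factors lie below 0.

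GC content moved with these values. The transcripts of the 40 factors ran from 40.1% GC (Npm1) to 59.4% (Noc4l), with a median of 50.3% beside 50.8% for all genes tested. Across the 40 genes, which share the same libraries and are not independent, GC content had a Pearson correlation of -0.487 with the log2 fold change in H2O2 against vehicle and of -0.243 with the difference between vehicle replicates 3 and 1. Over all genes the correlation with that difference was -0.265. For the fold change none was taken over all genes, so whether -0.487 is particular to the 40 is not known. With a correction for GC content in each library, 23 factors rose in H2O2 against vehicle and 21 in gRc + H2O2 against gRc. The share of all genes called with this correction is not given. In the first comparison Npm1, Ddx10 and Wdr12 lost their call and Rrp9 and Rrp12 gained one. In the second Nhp2, Tsr1, Ddx10 and Wdr12 lost it and Rrn3 and Rrp9 gained one.

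gRc itself gave no call among the factors. In gRc + H2O2 against H2O2, which shares the H2O2 libraries with the first comparison, 0 of 40 were called by edgeR and 0 by DESeq2, and 0 had an unadjusted p under 0.05 (0.822% of all genes did, and 0% were called). The median log2 fold change was -0.11, and 27 factors were lower and 13 higher after pretreatment (50.0% of all genes were higher). The smallest unadjusted p belonged to Ddx21, Polr1c and Polr1b. Ddx21 was at 516, 339 and 362 CPM with H2O2 and 329, 309 and 334 CPM with gRc + H2O2, and these groups did not overlap. Its log2 fold change was -0.32 (SE 0.19, adjusted p = 0.922), with a 95% interval from -0.75 to 0.10. Polr1c was at 55.5, 32.9 and 49.4 CPM and 30.9, 24.8 and 34.8 CPM (-0.61, SE 0.37, adjusted p = 0.922, interval from -1.42 to 0.21). Polr1b was at 47.9, 36.2 and 42.2 CPM and 36.0, 35.4 and 36.5 CPM (-0.23, SE 0.14, adjusted p = 0.922, interval from -0.54 to 0.08). Groups did not overlap for 7 factors, higher for Nolc1, Nop14 and Gnl2 (7.69% of all genes) and lower for Ddx21, Fbl, Gnl3 and Ddx18 (7.62%). The intervals ranged in width from that of Utp20, -0.22 to 0.28, to that of Ncl, -1.64 to 0.56, so that for some factors a change of more than 1 on the log2 scale lay within them.

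In gRc against vehicle, which shares the vehicle libraries with the first comparison, 0 of 40 were called by edgeR and 0 by DESeq2, with 0 at an unadjusted p under 0.05 (0.499% of all genes, with 0% called). The median log2 fold change was 0.02 and 22 values were above 0 (50.4% of all genes). Nop14, Wdr75 and Bop1 had the smallest p. Nop14 was at 37.9, 68.0 and 56.7 CPM with vehicle and 67.4, 67.1 and 57.5 CPM with gRc (0.24, SE 0.18, adjusted p = 1.00, 95% interval from -0.16 to 0.64). Wdr75 was at 30.1, 42.5 and 44.1 CPM and 45.7, 41.5 and 45.1 CPM (0.18, SE 0.16, adjusted p = 1.00, interval from -0.17 to 0.53). Bop1 was at 405, 231 and 155 CPM and 226, 263 and 149 CPM (-0.31, SE 0.32, adjusted p = 1.00, interval from -1.01 to 0.39). In all 3 the groups overlapped, and in no factor of the 40 were the gRc libraries apart from those of vehicle, whether higher (0.869% of all genes) or lower (0.741%). Without vehicle replicate 1 the value of Bop1 was 0.14.

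The interaction, which asks whether the response to peroxide differed with gRc, gave 0 calls by edgeR and by DESeq2 among the 40, and 0 at an unadjusted p under 0.05 (0.586% of all genes). The median was -0.08 on the log2 scale and 7 of 40 values were above 0 (50.9% of all genes). The smallest p belonged to Ddx21, with rises of 1.12 without gRc and 0.77 with it and an interaction of -0.35 (SE 0.27, adjusted p = 1.00), 95% interval from -0.95 to 0.26. Heatr1 had rises of 1.11 and 0.92 (-0.20, SE 0.17, adjusted p = 1.00, interval from -0.58 to 0.19) and Gnl3 of 1.55 and 1.21 (-0.34, SE 0.33, adjusted p = 1.00, interval from -1.07 to 0.39). A difference in response was not detectable at this spread between libraries.

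Other genes of ribosome production were read from lists drawn up by function. Of 102 further ribosome biogenesis factors tested, 33 rose and 0 fell in H2O2 against vehicle, with a median log2 fold change of 0.65, and 30 rose and 0 fell in gRc + H2O2 against gRc. Examples are Sdad1, with 1.01 (SE 0.12, adjusted p = 0.000377) and Utp14a, with 0.83 (SE 0.12, adjusted p = 0.00124). Of 7 other RNA polymerase I factors 3 rose in H2O2 against vehicle, Polr1e (1.01, SE 0.12, adjusted p = 0.000541), Taf1d (1.42, SE 0.23, adjusted p = 0.00237) and Taf1a (1.11, SE 0.29, adjusted p = 0.0239). Of 22 subunits and factors of RNA polymerase III, which makes transfer RNA and the smallest rRNA, 7 rose with a list median of 0.30, and of 14 exosome genes, whose products trim RNA, 1 rose (Dis3, 0.95, SE 0.14, adjusted p = 0.00137). The exosome share was thus 7.14%, beside 7.81% of all genes called higher in H2O2 against vehicle. Of 79 cytosolic ribosomal protein genes 0 rose and 0 fell in either peroxide comparison (by edgeR, with 8 and 7 at an unadjusted p under 0.05), with medians of 0.20 and 0.28. Values were above 0 for 48 and 66 of the 79, and groups did not overlap for 14 and 22, all higher with peroxide. Their summed level was 29566 to 34191 CPM with vehicle and 34676 to 40245 with H2O2. It was 27784 to 31850 with gRc and 35514 to 36774 with gRc + H2O2. Every sum with peroxide thus lay above every sum without, and no test was run on the sums.

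The Myc network, whose transcription factors are known regulators of ribosome biogenesis genes in growing cells, was split. Myc was at 19.6, 36.7 and 40.5 CPM with vehicle, 27.9, 31.1 and 42.6 with gRc, 109, 144 and 132 with H2O2 and 152, 169 and 159 with gRc + H2O2. Every library with peroxide was above every library without, and the log2 fold change in H2O2 against vehicle was 1.99 (SE 0.26, adjusted p = 0.000799). Of 10 network genes tested 2 rose and 4 fell in that comparison. Among those whose products oppose Myc at its sites, Mnt rose (0.82, SE 0.16, adjusted p = 0.00777), whereas Mxd4 (-0.96, SE 0.20, adjusted p = 0.00827), Mxd3 (-2.11, SE 0.45, adjusted p = 0.00953) and Mxd1 (-1.01, SE 0.30, adjusted p = 0.0434) fell. Mycl, a relative of Myc, fell as well (-1.13, SE 0.27, adjusted p = 0.0170). Mxd1 and Mycl were named after their values were seen. Whether Myc has a part in the levels of the 40 factors was not tested.

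**Figure D5:**
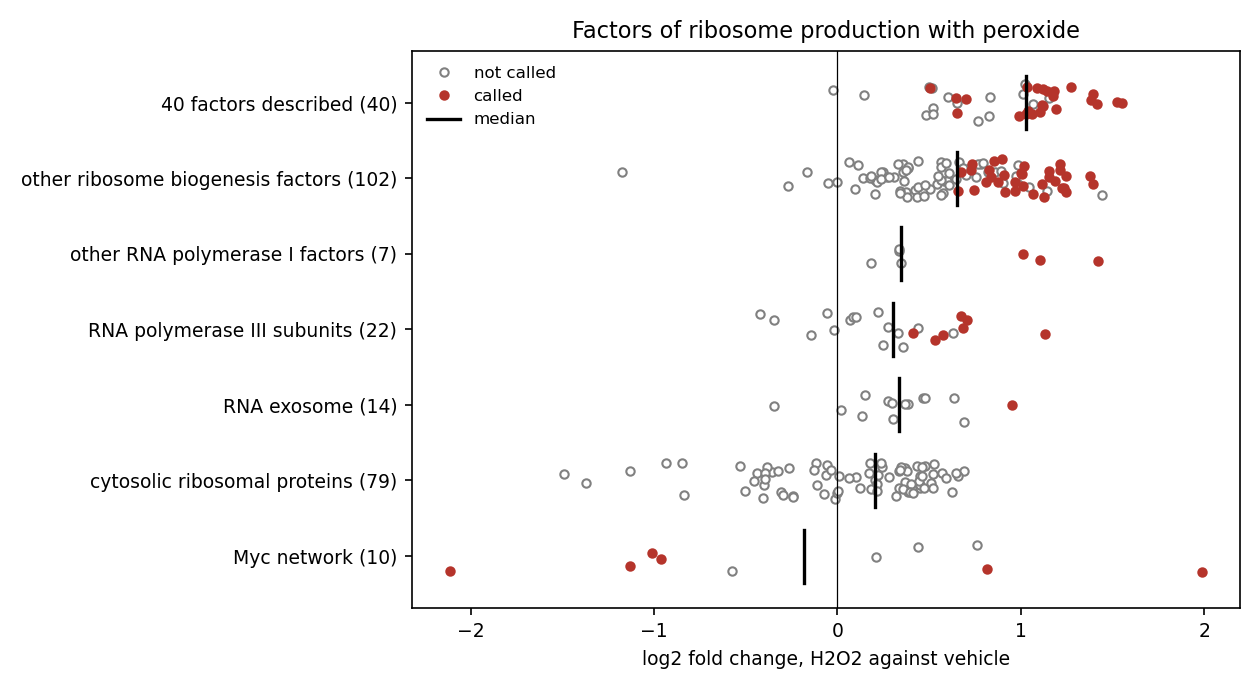
Log2 fold change in H2O2 against vehicle (horizontal axis) for each gene of 7 lists, filled red where called and open where not, with a black bar at the median and the number of genes tested in brackets. The median is 1.03 for the 40 factors, 0.65 for the other ribosome biogenesis factors and 0.20 for the cytosolic ribosomal proteins, and the Myc network has calls on both sides of 0.

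Markers of the cell types that the cultures could hold moved as follows. Of 12 differentiated muscle markers 0 were called in H2O2 against vehicle (edgeR, 2 at an unadjusted p under 0.05) and 2 fell in gRc + H2O2 against gRc, and their summed level was 16880 to 20734 CPM with vehicle, 19254 to 21934 with gRc, 14795 to 17809 with H2O2 and 14361 to 18142 with gRc + H2O2. Of 10 cycling-cell markers 2 fell in each comparison, Ccna2 (-0.85, SE 0.14, adjusted p = 0.00337) and Mcm2 (-0.55, SE 0.11, adjusted p = 0.00869) in H2O2 against vehicle, with sums of 384 to 453 and 453 to 479 CPM without peroxide and 325 to 340 and 317 to 374 with it, in the order vehicle, gRc, H2O2 and gRc + H2O2. Of 6 markers of undifferentiated myoblasts 2 fell in each comparison, in H2O2 against vehicle Id3 (-1.66, SE 0.24, adjusted p = 0.00130) and Pax7 (-1.27, SE 0.22, adjusted p = 0.00352), with sums of 79.2 to 93.9, 73.4 to 87.2, 61.2 to 74.9 and 62.2 to 68.2 CPM in the same order. Of 5 fibroblast markers tested 0 were called (0 at an unadjusted p under 0.05 in H2O2 against vehicle and 1 in gRc + H2O2 against gRc), and their sum ranged from 5011 to 35314 CPM in vehicle, 5406 to 13635 with gRc, 6110 to 13039 with H2O2 and 4647 to 6669 with gRc + H2O2. Of 5 macrophage markers 2 were tested, Csf1r and Cd68, with a summed level of 0.396 to 1.77 CPM over all libraries. The macrophage markers Ptprc, Adgre1 and Lyz2 and the fibroblast marker Thy1 had too few counts to be tested. Each was at 0 counts in at least 1 library, and their highest counts in a library were 2, 2, 41 and 4. The part of these markers in the result for the 40 factors was not tested.

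Some counts may be shared with other genes. The gene bodies of 7 factors (Ncl, Nop56, Nop58, Dkc1, Wdr43, Tsr1 and Gnl3) overlap 21 annotated snoRNA genes, a common arrangement for host genes of the translation machinery. Another gene on the opposite strand overlaps 17 factors and a gene on the same strand overlaps Gnl2. These overlaps are of whole gene bodies, and exons were not looked at separately. The library kit keeps strand, but no source used here says whether counting used it. Whether reads from such partners were counted is therefore not known.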

How the data were processed

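Paired-end RNA-seq of 12 libraries was analysed from the deposited RSEM gene tables. According to the submitters' notes and the study's methods, the authors checked reads with FastQC, trimmed them with Trim Galore, aligned them with STAR 2.7.3a to GRCm38 (mm10) and quantified genes with RSEM 1.3.3. The deposited expected counts, unnormalized and able to be fractional, were rounded and tested. The deposited TPM served length-scaled levels and an alternative. The effective length the authors deposited, in bases, was used as an offset in another. FPKM was not used here, and the strand setting is not given in the sources used here.

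In R 4.3.3, edgeR 4.0.16 kept 14838 genes (filterByExpr), normalized by TMM and tested groups by quasi-likelihood in a fit of all libraries, with a biological coefficient of variation of 0.295. Adjusted p (Benjamini-Hochberg) under 0.05 counted as called. SE were derived as the fold change over the square root of F. GC content and gene coordinates come from GENCODE M21 (GRCm38). Alternatives were DESeq2 1.42.0, limma 3.58.1 on log2(TPM + 0.5), other size factors and filters, offsets, a replicate block and libraries left out. The fits were also run on simulated data, with no outcome given here, so no result rests on that run.

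Every factor is named, and full statistics go to the 14 smallest p in H2O2 against vehicle, to 8 in gRc + H2O2 against gRc, to 3 elsewhere and to the factors highest and lowest in TPM. Library values of Fbl, Ncl, Ubtf and Bop1 in H2O2 against vehicle were added after they were seen. The factors and lists were chosen with earlier results of these data known. Deviations of gRc and vehicle libraries of the same number correlated at 0.46, 0.271 and 0.86 for replicates 1 to 3. Those of gRc + H2O2 and H2O2 libraries correlated at 0.08, 0.402 and 0.309. For H2O2 and vehicle the values were 0.44, 0.294 and -0.283, and for gRc + H2O2 and gRc 0.02, -0.496 and -0.55.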

Additional observations from a re-analysis of the deposited data

How the results depend on the processing

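In H2O2 against vehicle the count of factors called stayed within 1.5 times 24 under all alternatives except a fit of only the groups compared, which called 14 (382 genes higher and 357 lower of those tested, against 1159 and 1164). Leaving out each library gave 17 to 31. In gRc + H2O2 against gRc, 23 became 14 to 26 when libraries were left out. The counts of 14 and 15 came from leaving out a gRc + H2O2 library. With vehicle replicates 1 and 3 and gRc replicate 3 left out together, 31 factors were called in each, and the calls over all genes in the second comparison went from 1123 higher and 1209 lower to 2590 and 2563. Blocking on replicate number gave counts of 25 and 23, and with the block and a GC offset 24 and 21. DESeq2 gave 26 and 26, limma on TPM 18 and 18, an effective-length offset 20 and 20, and no filter 22 and 19. For single libraries left out, the block and these alternatives, the share of all genes called is not given. Such a count alone cannot tell a change in the factors from a change over all genes. No alternative called a factor lower or made a call in the other comparisons.

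Under all 24 alternatives 12 factors were called in H2O2 against vehicle: Ddx21, Nop58, Dkc1, Nop14, Wdr43, Wdr75, Heatr1, Utp20, Noc3l, Gnl3, Rrp1b and Rrs1. In gRc + H2O2 against gRc the 12 held Nolc1 in place of Ddx21. In each, 37 of 40 values stayed above 0 throughout. Npm1 was called in 7 of the 24 and Nop16 in 13, and Nhp2 in 9 in the second comparison. Pes1 lost its call with the length offset (adjusted p = 0.159), in the fit of only the groups compared (0.064) and with limma (0.166), and Nop56 with limma (0.0501) and, in the second comparison, with the length offset (0.0916) and limma (0.103). In gRc against vehicle the uncalled values of Nop14 and Bop1 changed sign, to -0.021 and 0.074 without the 3 libraries together, and that of Bop1 ran from -0.59 to 0.14 when single libraries were left out. The cause was not tested.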

Other observations

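Of the 7 factors that host snoRNA genes, 6 were called higher in H2O2 against vehicle (Nop56, Nop58, Dkc1, Wdr43, Tsr1 and Gnl3), where 24 of all 40 factors were called, and Ncl was not. The half-site TGACGT of cyclic AMP response elements stood, on either strand, in 6 of 43 promoter windows of the factors (14%), in 7.51% of all promoters and in 11.1% of those of tested genes.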
